A study of Brassica napus and Orychophragmus violaceus with 4 samples.

Results

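Of the 37441 genes in the deposited read table, 73 (0.195%) had no read in petals of H3, 10 or more reads in petals of M4, and 5 or more reads in petals of both OvP and OvW. The red-flowered M4 is *Brassica napus* to which 1 chromosome pair from *Orychophragmus violaceus* has been added (a disomic addition line). H3 is *B. napus* cv. Huashuang 3, its yellow-flowered donor. OvP is wild-type *O. violaceus* with purple petals and OvW is a natural mutant of it with white petals. All plants were grown in a greenhouse and petals were taken from half-open flowers, with 1 library per material. How many plants made up a library is not stated in the sources used, so no value below has a replicate check.

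The 73 genes, called members here, were chosen by their read counts in all 4 libraries. They are candidates for genes that lie on the added chromosomes, and whether their reads came from these chromosomes was not tested. An addition line holds the complete genome of its host plus a chromosome pair of another species, so that genes on this pair are transcribed beside the host's own copies. *B. napus* unites the genomes of *B. rapa* and *B. oleracea*, and the ancestor of these species multiplied its genome, so that several *Brassica* genes often match 1 gene of *Arabidopsis*. Reads of all 4 libraries were counted on *B. rapa* genes, and a read from *B. oleracea* or from *O. violaceus* is counted on the *B. rapa* gene that it fits. The counts do not tell from which of these genomes a read in M4 came. Roles given below are those known for the *Arabidopsis* match, or locus, that the deposited table pairs with each gene.

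The *B. napus* libraries held 15507389 (M4) and 16447021 (H3) counted reads, and the *O. violaceus* libraries 1850787 (OvP) and 2040729 (OvW). The paper reports similar numbers of clean reads for all libraries, but a far smaller share of the *O. violaceus* reads mapped to *B. rapa*. The counted reads thus differ by mapping and not by the amount of sequencing. With these counts 0 reads in H3 leaves room for 3 reads, or 0.182 CPM (counts scaled to a common library total), so a member may still be weakly expressed in H3. The read column used for M4 has a code name and was assigned by elimination. Its ratio to the H3 reads followed the ratio of the RPKM columns headed M4 and H3 in the 14978 genes with 50 or more reads in both, with a median quotient of 1.05 and 95% of genes between 1.04 and 1.06. Petal identity genes were read in all libraries, at a summed level of 4167 CPM in M4 and 4769 in H3, and of 5049 in OvP and 7563 in OvW. Green tissue markers differed, with 45.6, 57.0, 713 and 2028 CPM in the same order. Of these, *LHCB2.1* held 1064 of 1320 reads in OvP and 3605 of 4139 in OvW. *RBCS2B* had 38 reads in M4, 55 in H3 and 0 in both *O. violaceus* libraries, and Bra030181 (*LHCB1.3*) had 30, 43 and 0. Anther and pollen markers stayed between 12.4 and 48.0 CPM and carpel markers between 7.09 and 15.4. Guard cell markers had 69.7, 91.2, 56.2 and 98.004 in the order M4, H3, OvP and OvW. CPM scales to the counted reads, so these sums are not directly comparable between *B. napus* and *O. violaceus*. In bulk petals, fewer cells of a type and less RNA per cell cannot be told apart.

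Most members were read weakly in M4. The lowest had 10 reads, the median 22 and the highest 396, and their sum of 3399 reads made up 0.0219% of the library (95% Clopper-Pearson interval 0.0212 to 0.0227, counting error only). Under 20 reads were found for 30 members, 20 to 99 for 33 and 100 or more for 10. In *O. violaceus* the same genes took a larger share of the counted reads. They summed to 6988 reads or 0.378% (0.369 to 0.387) in OvP, and to 3890 reads or 0.191% (0.185 to 0.197) in OvW, with medians of 23 and 25 reads.

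Per gene length and counted reads, most members were lower in M4 than in *O. violaceus*. Their median RPKM, a level relative to gene length and library size, was 1.84 in M4, against 15.2 in OvP and 12.4 in OvW. Genes with the same minimum reads in M4, OvP and OvW but any number in H3, 14945 in all, had medians of 15.6, 14.7 and 13.9. The M4 level lay below both *O. violaceus* levels in 68 members (93.2%), between or equal to them in 3 and above both in 2, while it lay below both in 42.9% of the 14945 genes. By raw reads the members had a median M4 to OvP ratio of 1, against 8.30 over the 14945 genes, and M4 had several times as many counted reads as OvP. The rule itself favours genes that are low in *B. napus*, and no test was made of this difference. RPKM scales to the counted reads, which were a far smaller share of the sequenced reads in *O. violaceus*. Levels per counted read are therefore not directly comparable between the species, and the part of this in the lower M4 levels was not tested. The same limit holds for the RPKM comparisons of M4 with *O. violaceus* below. For comparison, 15 genes met the reverse rule (0 reads in M4, 10 or more in H3, 5 or more in both *O. violaceus* libraries), and their median ratio of H3 to OvP reads was 2.22.

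**Figure D1:**
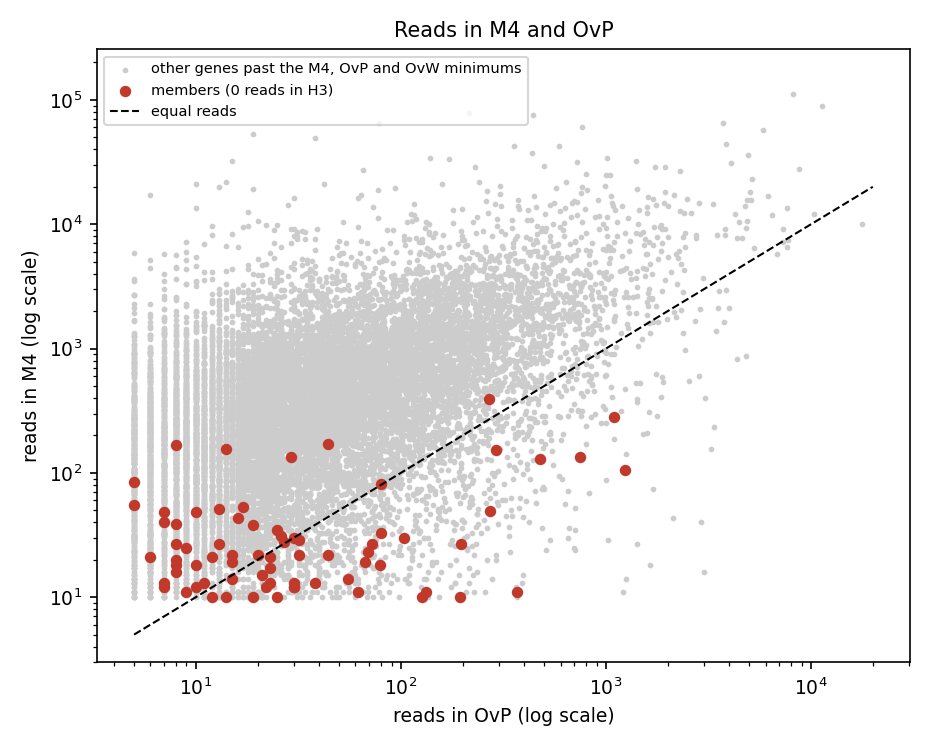
Reads in M4 (vertical, log scale) against reads in OvP (horizontal, log scale) for the 73 members (red) and the other genes with 10 or more reads in M4 and 5 or more in OvP and OvW (grey), with a dashed line at equal reads. The members scatter on both sides of the line, with a median ratio of 1, whereas most other genes lie above it, with a median of 8.30 over the 14945 genes.

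The M4 to H3 contrast chose the members, so their folds are a description. With 0 reads in H3 set to a floor of 3 reads per library, and with the reads scaled by TMM, members were at least 2.71-fold to at least 107-fold higher in M4, with a median of at least 5.96-fold. All 73 were called higher by edgeR's exact binomial test of the reads at a p no higher than 0.01 and a fold no lower than 2, which the rule made nearly certain, against 16.2% of the 34286 genes tested. This test uses counting error only and compares the libraries, not the conditions.

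Genes of the protein folding and cytoskeleton machinery were among the members with the most reads. *HSP17.6II* (Bra023360), a small heat shock protein that keeps other proteins from aggregating, had 283 reads in M4 and 0 in H3, while OvP had 1095 and OvW had 197. Its M4 level was at least 76.7-fold that of H3. *TFCA* (Bra022798), a cofactor in the folding of tubulin, had 153 reads in M4 and 0 in H3, while OvP had 292 and OvW had 201, and its RPKM of 43.0 was the highest of all members in M4. The gene for the microtubule-bundling protein *MAP65-2* (Bra010428) showed the opposite balance, with 166 reads in M4 but only 8 in OvP and 15 in OvW. *MAP65-2* was 1 of the 2 members whose RPKM in M4, at 5.89, stood above both *O. violaceus* libraries (2.42 and 4.39). The other was *CYP71B4* (Bra036342), a cytochrome P450, with 55 reads and an RPKM of 2.66 in M4, against 5 reads and 2.06 in OvP and 5 reads and 1.88 in OvW.

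Other members are known from the cell wall. *FLA10* (Bra007569), a fasciclin-like arabinogalactan protein of the cell surface, had 156 reads in M4 and 0 in H3, while OvP had 14 and OvW had 22. *ATAGP26* (Bra021448), another arabinogalactan protein, stood at the lower limit of the rule with 10 reads in M4 and 25 in each *O. violaceus* library. *GAUT11* (Bra031036), a galacturonosyltransferase of pectin synthesis, had 21 reads in M4 against 6 in OvP and 14 in OvW, and *GH9B5* (Bra025783), of the glycosyl hydrolases that include endoglucanases, had 17, 23 and 26. Of the 4, *FLA10* was the only gene with more than 100 reads in M4, and its RPKM of 7.61 lay between those of OvP (5.83) and OvW (8.33).

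Some members are known from lipid metabolism. *ACP1* (Bra040638), an acyl carrier protein that holds growing fatty acids in the plastid, had 130 reads in M4 against 475 in OvP and 399 in OvW, with RPKM values of 19.99, 622 and 475. The gene of alpha-dioxygenase 2 (*alpha-DOX2*, Bra008107), which oxidizes fatty acids, had 27 reads in M4 against 196 in OvP and 43 in OvW. The patatin-like gene *PLP9* (Bra040428) had 38, 19 and 18 reads and *LPAT5* (Bra037553), an acyltransferase of membrane lipid synthesis, had 21, 23 and 38. *OLEO2* (Bra025577), encoding an oleosin of oil bodies, had 13 reads in M4 against 38 in OvP and 31 in OvW. By RPKM all 5 were lower in M4 than in both *O. violaceus* libraries, as were most members, and *PLP9*, although it had more reads in M4, stood at 2.07 against 8.64 and 7.45.

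Among other enzymes, *FBA6* (Bra017234), a fructose-bisphosphate aldolase of glycolysis, had 49 reads in M4 and 0 in H3, while OvP had 271 and OvW had 269. *ADK2* (Bra005735), an adenosine kinase that salvages adenosine, had 28, 27 and 25 reads in M4, OvP and OvW, or RPKM values of 1.71, 13.8 and 11.6. *EMB1276* (Bra020710) had 11 reads in M4 against 62 and 71 in *O. violaceus*. *PMAT2* (Bra016209), a malonyltransferase that acts on phenolic glucosides, had 15 reads in M4 against 21 in OvP and 38 in OvW.

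Transport and signalling genes were read at low depth in M4. *GLR3.1* (Bra020811), a glutamate receptor-like channel, had 30 reads in M4 against 104 in OvP and 178 in OvW. *PDR6* (Bra023065), a transporter of the pleiotropic drug resistance family, had 18 reads in M4 and the lowest RPKM of all members there, 0.26, against 79 and 67 reads in OvP and OvW. *UMAMIT12* (Bra017186), named for amino acid transport, had 10, 19 and 8 reads. *RBOHD* (Bra037520), an oxidase that makes reactive oxygen in defence, had 27 reads in M4 against 8 in OvP and 14 in OvW, and the peroxidase gene *RCI3A* (Bra015404) had 19, 15 and 6. *CKB2* (Bra025463), a regulatory subunit of casein kinase II, had 22, 44 and 39 reads, and *RACK1B_AT* (Bra032261), a scaffold protein, had 21, 12 and 8. The cystatin *CYSB* (Bra034755), an inhibitor of cysteine proteases, had 31 reads in M4 against 26 in OvP and 9 in OvW. By RPKM all 8 genes were lower in M4 than in both *O. violaceus* libraries, also where they had more reads in M4: *RBOHD* stood at 0.63 in M4 against 1.53 and 2.44, and *CYSB* at 2.86 against 20.5 and 6.45.

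Among developmental genes, *YAB1* (Bra000378), a YABBY factor of lateral organ polarity, had 33 reads in M4 and 0 in H3, while OvP had 80 and OvW had 269. *RSM4* (Bra025745), of the RADIALIS-like MYB proteins, had 35, 25 and 11 reads in M4, OvP and OvW, and *TMO6* (Bra006675), a Dof factor of vascular development, had 12, 30 and 26. *EDA3* (Bra005386), named for arrest of the embryo sac, had 84 reads in M4 against 5 and 20. The remaining members with a symbol, *DUF 10* (Bra033167), *BRXL4* (Bra020109), *TPP* (Bra022799) and *TPST* (Bra030710), had 25, 16, 14 and 14 reads in M4.

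The deposited table gave a symbol for 33 members and none for 40. A description was given for 31 members (42.5%), against 47.6% of the 14945 genes. Key words put 15 of them in at least 1 of 16 functional classes, and no class held more than 3. By these key words, transcription factors made up 3.23% of the described members, which was *RSM4* alone, and 2.81% of the described genes among the 14945. The 6 classes with 0 members by key word held between 0.0141% and 2.12% of the latter. The key words missed the factors *YAB1* and *TMO6* and the protease inhibitor *CYSB*. They also put the adenosine kinase *ADK2* with protein kinases, so the class shares depend on the wording of the descriptions. Members without a symbol are named by their locus only. The largest was Bra039969 (AT2G30670), with 396 reads in M4 and 0 in H3, while OvP had 269 and OvW had 128. The locus AT1G67750 (Bra033980) had 170 reads in M4 against 44 in OvP and 118 in OvW, and AT1G45010 (Bra014034) had 134, 29 and 24. AT3G20160 (Bra035808) and AT2G39130 (Bra007103) had 135 and 106 reads in M4, but 747 and 1234 in OvP and 147 and 172 in OvW. The remaining unnamed members among the 20 with the most reads ranged from 40 to 82 reads in M4 and from 7 to 80 in OvP.

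**Figure D2:**
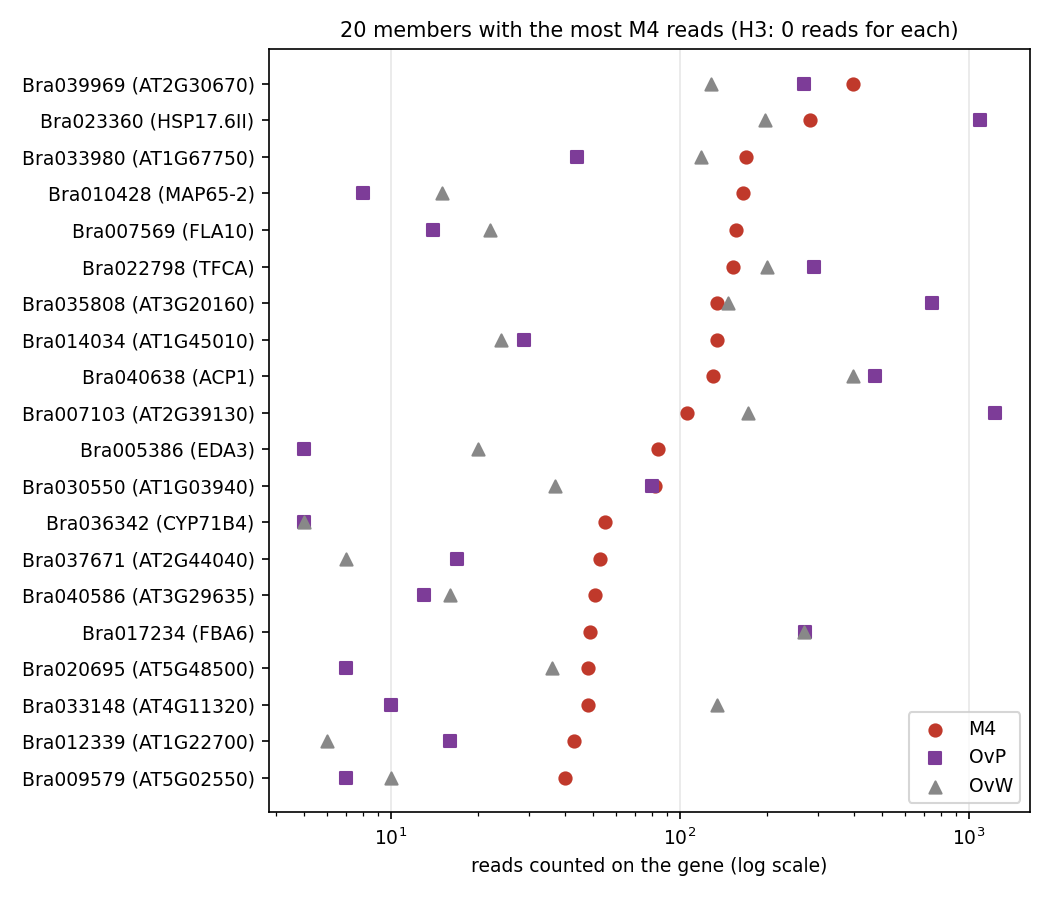
Reads (log scale) of the 20 members with the most reads in M4, with M4 as red circles, OvP as purple squares and OvW as grey triangles; each point is 1 library and H3 had 0 reads for each gene. *MAP65-2*, *FLA10* and *EDA3* lie far to the left in *O. violaceus*, while *HSP17.6II* (1095 reads in OvP) and AT2G39130 (1234) lie far to the right.

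Levels across members were ordered much alike in OvP and OvW and less so in M4. Over the 73 members, Spearman's rho of RPKM was 0.811 between OvP and OvW, 0.477 between M4 and OvW and 0.366 between M4 and OvP, and the 14945 genes had 0.875, 0.515 and 0.531. These are descriptions across genes, which share libraries and gene lengths. M4 held at least 3 times the reads of OvP in 14 members and at most 1/3 of them in 16. Reads in M4 were above both *O. violaceus* libraries in 33 members, below both in 33 and between or equal to them in 7.

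The rule asked for presence in both *O. violaceus* libraries but not for their ratio, so members were compared between purple and white petals. Of the 73, 10 were called higher in OvP and 6 lower, and 57 were not called. That is 21.9% called, against 11.4% of all 33743 genes tested and 17.1% of the 14945 genes with the same minimum reads. The share called higher was 13.7%, against 5.6% of all tested genes and 8.52% of the 14945, and the share called lower was 8.22%, against 5.76% and 8.61%. The median OvP to OvW fold was 1.20 for the members and 1.01 for the 14945 genes.

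Among the members called higher in OvP, the unnamed gene of AT2G39130 had the largest fold, with 1234 reads in OvP and 172 in OvW, a 7.46-fold difference (interval 6.35 to 8.80). *HSP17.6II* was 5.78-fold higher in OvP (4.96 to 6.76). Next to it were AT1G72210 (Bra008017), 6.23-fold higher on 30 against 5 reads (2.40 to 20.6), AT3G43960 (Bra022419), 5.79-fold higher on 195 against 35 reads (4.02 to 8.55), and AT3G20160, 5.28-fold higher (4.42 to 6.35). *alpha-DOX2* was 4.74-fold higher (3.39 to 6.75) and AT2G30550 (Bra021642) 4.56-fold higher on 369 against 84 reads (3.59 to 5.86). In M4 the members called higher in OvP held between 10 and 396 reads, and AT3G43960, among the largest differences, stood at the lower limit of 10.

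Lower in OvP were AT4G11320 (Bra033148), at 0.0775-fold on 10 against 134 reads (0.0364 to 0.147), and *YAB1*, at 0.309-fold on 80 against 269 reads (0.238 to 0.398). AT5G48500 (Bra020695) was 0.202-fold on 7 against 36 reads (0.0759 to 0.460), AT1G14040 (Bra026864) was 0.247-fold on 10 against 42 reads (0.111 to 0.501) and AT1G67750 was 0.387-fold on 44 against 118 reads (0.268 to 0.552). *EDA3* had 5 and 20 reads, a ratio of 0.260 (0.0762 to 0.713). Green tissue markers, most of them *LHCB2.1* reads, also differed between these libraries, at 713 CPM in OvP and 2028 in OvW. Their part in these differences was not tested. When edgeR's exact test assumed a coefficient of biological variation of 0.4, the 16 calls fell to 5, which were AT2G39130, *HSP17.6II*, AT3G43960, AT3G20160 and AT4G11320.

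**Figure D3:**
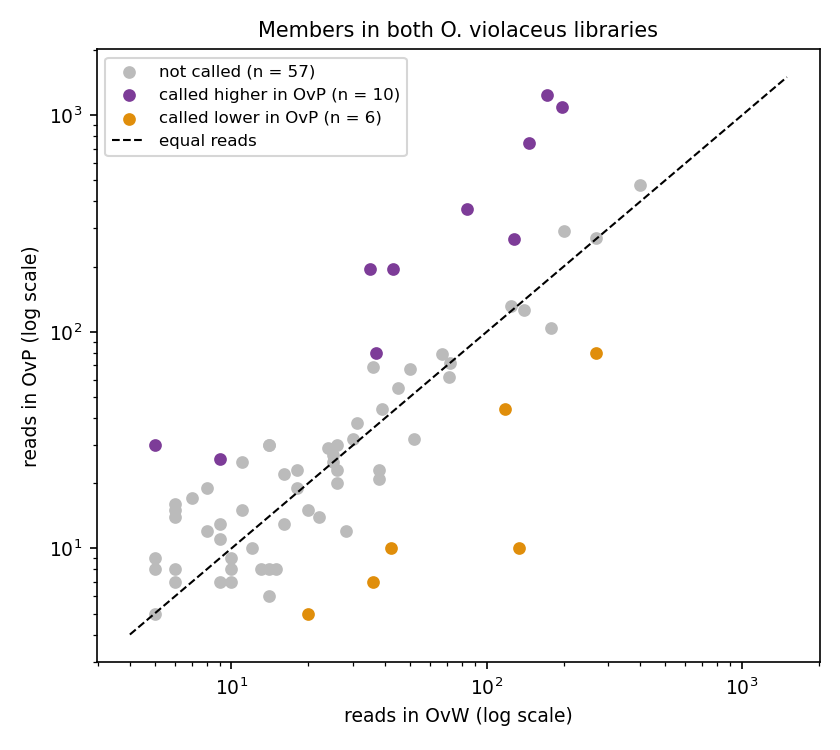
Reads of the 73 members in OvP (vertical, log scale) against OvW (horizontal, log scale), each point a gene, with a dashed line at equal reads. The 10 genes called higher in OvP (purple) and the 6 called lower (orange) stand apart from the line, and the other 57 (grey) scatter around it.

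Each member had a different *Arabidopsis* locus, and for most of them another *B. rapa* gene of the same locus was present in H3. Such a same-locus gene, a paralog by the annotation, was listed for 62 members, and 11 (15.1%) had none, against 28.9% of the 14945 genes. A same-locus gene with 10 or more reads in H3 was found for 49 members, with 1 or more reads for 59 and with 50 or more for 37. No matching share over the 14945 genes is given for these counts. Over the 62 members the same-locus genes held a median of 70 reads in H3 and up to 46080. For 14 members no read of the locus was found in H3. These were *FLA10*, *FBA6*, *GLR3.1*, *DUF 10*, *GH9B5*, *OLEO2* and 8 unnamed genes, of which AT1G45010, with 134 reads in M4, and AT1G03940 (Bra030550), with 82 reads in M4 against 80 in OvP and 37 in OvW, had the most.

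Members mostly held a small part of the reads of their locus in M4 and a larger part in OvP. Over 58 members whose same-locus genes were read in M4, the member held a median of 13.9% of the locus reads in M4 and 65.1% in OvP, against 46.2% and 50% over the 10309 genes of the 14945 with same-locus reads in M4. It held most of the locus reads for 8 members in M4 (13.8%, against 46.2% of the 10309) and for 37 in OvP (63.8%, against 49.2%). The rule used the member's own reads, with 0 in H3 and a minimum in OvP, so these shares are a description. *ACP1* shows the shift: the member had 130 reads in M4 and 475 in OvP, while its same-locus gene Bra001134 had 9932 in M4 and 22 in OvP, so that the member held 1.14% of the locus in M4 and 74.3% in OvP. For *TFCA*, Bra018315 had 790 reads in M4 and 442 in H3, while OvP had 4 and OvW had 10, and the member held 16.2% of the locus in M4 and 98.6% in OvP. Elsewhere the member was the lesser copy in OvP too. The gene of AT2G30670 with the most reads, Bra018396, had 16882 reads in M4 and 42742 in H3, while OvP had 6162 and OvW had 2881. For *ADK2*, Bra009536 had 2170 reads in M4 and 460 in OvP, and the member held 5.53% of the locus in OvP.

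The reads of the same-locus genes were not used by the rule, and they were compared between M4 and H3. Of 122 such genes 117 could be tested. Of these, 38 (32.5%) were called higher in M4, against 16.2% of all genes tested, 12 (10.3%) were called lower, against 12.7%, and 67 were not called. Among the 69 with 10 or more reads in H3, 26 (37.7%) were called higher, 12 (17.4%) lower and 31 neither, against 18.5% and 19.2% of the 22110 genes with as many reads. Their median M4 to H3 ratio was 1.58, against 0.949 over those 22110 genes. At least 1 same-locus gene was called higher for 30 members and lower for 11, and both for 3. Near-identical copies can share reads, and which part of a locus's reads came from which copy was not tested.

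The largest rise among same-locus genes with 10 or more reads in H3 was that of *HSP17.6II* (Bra006137), with 517 reads in M4 and 26 in H3, 16.2-fold higher (10.9 to 24.98). It was also read in *O. violaceus*, with 388 reads in OvP and 116 in OvW. The same-locus gene of AT1G67750 (Bra004073) had 1697 and 97 reads, 14.2-fold higher (11.6 to 17.6), and that of AT2G39130 (Bra005061) had 722 and 56, 10.5-fold higher (7.98 to 14.0). The *ACP1* gene Bra001134 was 5.30-fold higher in M4 (5.02 to 5.59) on 9932 and 1524 reads, and a second *ACP1* gene, Bra039471, was 4.22-fold higher (3.69 to 4.85). *RBOHD* (Bra020724) was 6.74-fold higher on 340 and 41 reads, *PDR6* (Bra017241) 6.15-fold on 530 and 70, and *ADK2* (Bra009536) 4.79-fold on 2170 and 368. In these loci the member and its same-locus gene were both higher in M4.

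The opposite was found for AT2G25450, whose gene Bra022920 had 4514 reads in H3 but 2 in M4, a ratio of 0.000360 (4.4e-05 to 0.00130). The member of this locus, Bra021670, had 19 reads in M4 against 67 in OvP and 50 in OvW, so the locus as a whole was far lower in M4. The AT2G30670 genes Bra018396 and Bra018393 were 0.321-fold and 0.386-fold in M4, on 16882 against 42742 reads and 1584 against 3335. *UMAMIT12* (Bra005193) was 0.279-fold on 119 against 347 reads, *alpha-DOX2* (Bra003833) 0.212-fold on 40 against 153, and *TPP* (Bra021634) 0.427-fold on 537 against 1021. Scaling to total reads ended the calls of Bra018393, *TPP* and Bra018933 (AT1G51820), at ratios of 0.504, 0.558 and 0.554. The median log2 fold of genes with 10 or more reads in H3 moved from -0.08 with TMM to 0.31 with total reads, and the folds given here are relative to the TMM scale.

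**Figure D4:**
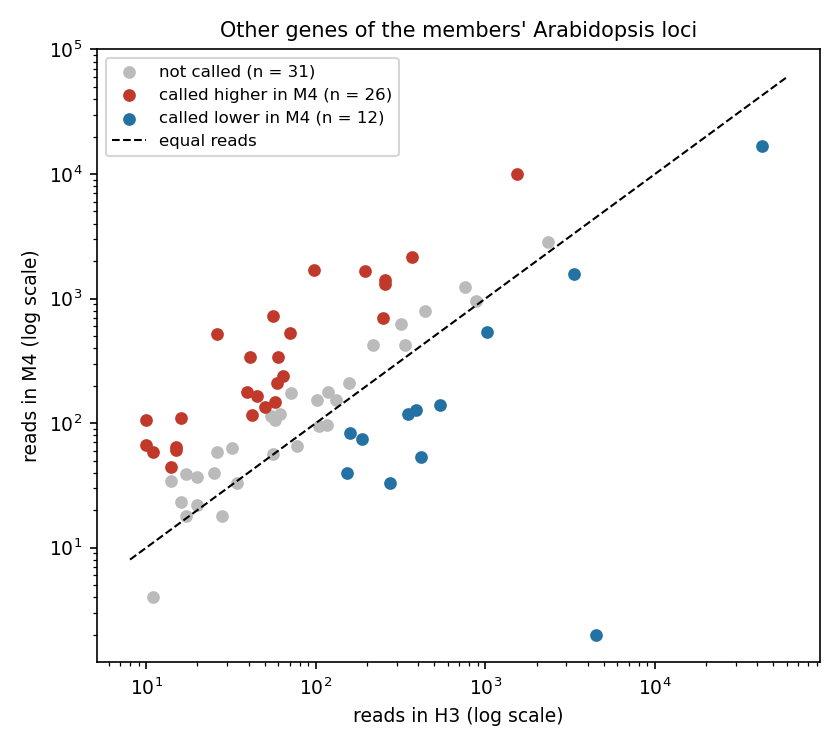
Reads in M4 (vertical, log scale) against H3 (horizontal, log scale) of the 69 genes that share an *Arabidopsis* locus with a member and had 10 or more reads in H3, with a dashed line at equal reads. The 26 genes called higher in M4 (red) spread over the range of H3 reads, the 12 called lower (blue) include Bra022920 at 2 reads in M4 and 4514 in H3, and 31 (grey) were not called.

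Some loci with close copies need care. For 10 members a same-locus gene lies within 10 identifier numbers, a distance chosen after the values were seen. Bra033201 (AT4G10030), with 27 reads in M4 and 0 in H3, has the next-numbered gene Bra033200 of the same locus, with 29 and 5 reads. Bra026864 (AT1G14040), with 12 reads in M4, adjoins Bra026863 in number, which had 39 reads in M4 and 17 in H3. In both cases the locus was read in H3 on the neighbouring gene. The RPKM table listed values above 0 in H3 for 2 members, 0.08 for AT5G48500 and 0.03 for Bra033201, although their read count was 0.

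Members lay on every chromosome of the *B. rapa* reference. A02 held 13 (17.8%, against 8.68% of the 14945 genes) and A04 held 11 (15.1%, against 6.39%). A03 held 10 (13.7%, against 14.4%), A05 9 (12.3%, against 9.66%) and A08 6 (8.22%, against 7.66%), and 3 lay on unplaced scaffolds. A01 and A10 held 3 each (4.11%, against 9.61% and 7.50%), and A09 held 5 (6.85%, against 13.7%). Of the 201 genes that met the other limits with 1 to 3 reads in H3, 14.4% lay on A02 and 8.96% on A04. By the *Arabidopsis* chromosome of the locus, 24 members fell on chromosome 1 (32.9%, against 25.8%) and 16 on chromosome 2 (21.9%, against 14.7%). Chromosome 3 had 16 (21.9%, against 20.6%), chromosome 5 had 11 (15.1%, against 23.7%) and chromosome 4 had 6 (8.22%, against 15.1%). These are the places of the matched *B. rapa* and *Arabidopsis* genes and not places on the chromosomes of *O. violaceus*.

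**Figure D5:**
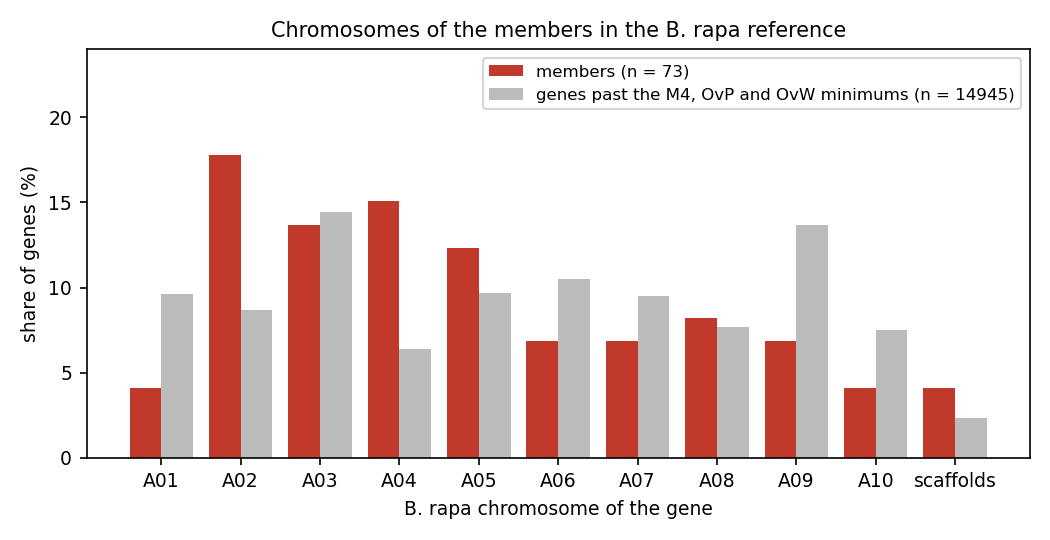
Share (%) of the 73 members (red) and of the 14945 genes with the same minimum reads in M4, OvP and OvW (grey) on each chromosome of the *B. rapa* reference and on unplaced scaffolds. A02 and A04 hold 17.8% and 15.1% of the members, against 8.68% and 6.39% of the other set. A01 and A09 hold 4.11% and 6.85%, against 9.61% and 13.7%.

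Sorted by locus into 63 windows of 5000 locus numbers, 27 windows held no member and 27 held 1 or 2. The 5 windows with the most members held 23 of the 73 (31.5%, against 10.3% of the 14945 genes), a share that the choice of windows by member count raises. AT2G35000 to AT2G39999 held 6 and the adjoining AT2G30000 to AT2G34999 held 5, while the windows from AT1G50000, AT1G70000 and AT3G05000 held 4 each. The span AT2G30000 to AT2G39999, chosen after its count was seen, held 11 members (15.1%), against 657 of the 14945 genes (4.41%), and 1 of the 15 genes of the reverse rule. With genes of 3 or fewer reads in H3 taken in, the share in the 5 windows was 17.9% and that in the span 8.39%, and of the 201 genes with 1 to 3 reads alone 5.97% lay in the span.

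The 11 members of that span lay on 4 chromosomes of *B. rapa*. On A04 were AT2G30670, *FBA6*, AT2G30550, *UMAMIT12* and AT2G38380 (Bra017121), the last with 22 reads in M4 against 20 in OvP and 26 in OvW. On A03 were *TFCA*, *TPP* and *PDR6*, and *TPP* (Bra022799), with 14 reads in M4 against 55 in OvP and 45 in OvW, has the number next to *TFCA* (Bra022798). On A05 were *EDA3* and AT2G35470 (Bra005339), with 13, 7 and 9 reads, and on A09 was AT2G39130. AT2G30550 had 11 reads in M4 against 369 in OvP and 84 in OvW, so the balance of M4 and *O. violaceus* reads differed widely among members of the span.

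The other leading windows held the following members. From AT1G50000 came AT1G51130 (Bra030454) with 39 reads in M4, AT1G50575 (Bra018858) with 22, AT1G52600 (Bra040958) with 20 and AT1G51820 (Bra030414) with 12. From AT1G70000 came *alpha-DOX2*, AT1G72210 with 30 reads, AT1G72020 (Bra003901) with 13 and AT1G71430 (Bra007976) with 12. From AT3G05000 came *ACP1*, AT3G09540 (Bra029773) with 27 reads, AT3G09410 (Bra001307) with 11 and AT3G05070 (Bra001135) with 10. Genes in the 5 windows that are not members were called higher in M4 in 18.2% of 3393 tested, against 16.2% of 29458 elsewhere.

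Many genes stood close to the limits of the rule. At 10 reads in M4, just inside, were 6 members, among them *UMAMIT12*, *ATAGP26* and AT3G43960. At 9 reads, just outside, were 5 genes, *Phox1*, *GMD1*, *CLE40*, AT5G18130 and AT2G41150. A further 65 genes met all limits but for 1 read in H3. They reached 757 reads in M4 for *ChlAKR* (Bra005161), an aldo-keto reductase gene, which had 41 in OvP and 167 in OvW, and 103 for the metal transporter gene *MTP11* (Bra005039), which had 101 and 250. A single read in H3 thus kept out *ChlAKR*, which had more reads in M4 than any member.

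Genes of anthocyanin synthesis were looked up in the same way, because M4 petals are red and H3 petals are not. None of the 33 flavonoid and anthocyanin genes, 24 anthocyanin regulators, 20 phenylpropanoid genes or 23 carotenoid genes in the lists was a member, and neither was any gene of the 5 marker lists. The lists held no acyltransferase gene of anthocyanins, so they do not cover every gene of this pathway. Members outside the lists, such as the unnamed AT1G03940 (Bra030550), were not checked for a role in it. Bra030550 was called higher in OvP than in OvW, at 2.25-fold. Absence from the lists therefore does not mean that no member acts in anthocyanin synthesis. Between M4 and H3, where 16.2% of all tested genes were called higher and 12.7% lower, 10 of 29 tested flavonoid and anthocyanin genes were called higher and 4 lower, as were 7 and 3 of 22 regulators, 3 and 4 of 18 phenylpropanoid genes and 1 and 6 of 23 carotenoid genes. Both genes of *ANS*, anthocyanidin synthase, had no read in H3, with 234 and 40 in M4 and 140 and 101 in OvP, but only 2 and 1 in OvW, which kept them out of the list. *TT19* (Bra023602), a glutathione transferase gene of anthocyanin transport, and *MYB111* (Bra037419), a MYB regulator of flavonol synthesis, had 59 and 78 reads in M4 and 0 in H3 but 4 each in OvP. A second *TT19* gene, Bra008570, and Bra027653, a gene of the bHLH regulator *EGL3*, missed the rule only by 1 read in H3. Their M4 counts were 19 and 25. The OvP library held 148 and 701 reads of these genes and the OvW library 45 and 699. The *PAP2* gene Bra001917 is of the MYB activators of anthocyanin synthesis and is listed under *PAP1* in the paper. It had 92 reads in M4 against 47 in OvP and 42 in OvW and missed the rule by its 3 reads in H3. Bra004162 and Bra039763, also listed there under *PAP1*, had 524 and 25 reads in M4 and 147 and 57 in H3. By assembly and cloning, the paper placed a *PAP2* homolog expressed in M4 petals on the added pair. Which *B. rapa* gene its reads were counted on was not tested.

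Beyond the members, 230 genes had 0 reads in H3 and 10 or more in M4 but were not read enough in *O. violaceus*. The members were 24.1% of these 303 genes, and the reverse rule gave 15 of 123 genes (12.2%). Of the 230, 60 had no read in either *O. violaceus* library, 22 reached 5 reads in OvP alone, 17 in OvW alone and 191 in neither. The *O. violaceus* libraries held far fewer counted reads, as a smaller share of their reads mapped to *B. rapa*, so genes of low level there may have gone undetected.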

How the data were processed

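Petal RNA was sequenced by Illumina as directional libraries, 1 each for M4, H3, OvP and OvW. The authors aligned the reads with TopHat, allowing 2 mismatches against the genome of *B. rapa*, and deposited raw counts for each gene. Levels per gene length and library size were deposited as RPKM, for which the authors name Cufflinks and Cuffdiff. DESeq is named too. Tool versions, the genome version, the counting tool and its strand setting are not stated in the sources used, so overlapping and antisense genes cannot be told apart.

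Members were taken from the counts by the rule that opens the report. The rule, the members and the gene lists were chosen with earlier results of these data known. All genes with a read in either library of a pair were scaled by TMM and compared with the exact binomial test of edgeR 4.0.16 (R 4.3.3), which knows counting error only. Calls needed a p no higher than 0.01 and a change to 2 times or more, or to 0.5 times or less. Named genes are the 20 members with the most reads and 10 with the highest RPKM in M4, the 5 highest and 5 lowest called members between OvP and OvW, the 10 whose same-locus genes held the most H3 reads, those of the 5 leading windows and those at the limits of the rule, and members with a symbol were added. Intervals are 95% Clopper-Pearson intervals. On simulated counts the test recovered 99% of 4-fold changes between M4 and H3 (32916 genes) and 95% between OvP and OvW (31765 genes). The alternatives were total reads, DESeq2 1.42.0 size factors, at least 10 reads summed over a pair, edgeR's exact test with a coefficient of biological variation set to 0.1, 0.2 or 0.4, p adjusted by Benjamini-Hochberg, and other read limits. Other tools were Python 3.11.15, pandas 2.3.3, numpy 2.4.6, matplotlib 3.10.9 and SciPy 1.17.1. PCR reads without molecular identifiers are not independent molecules, so intervals and floors cover counting error only. No gene or protein sequence was used here.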

Additional observations from a re-analysis of the deposited data

How the results depend on the processing

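The list depended on its limits. With 1 read or fewer in H3 it held 138 genes and with 3 or fewer 274. A minimum of 5 reads in M4 gave 128 and of 20 gave 43, and a minimum of 1 read in OvP and OvW gave 161 and of 10 gave 48. The reverse rule gave 28, 79, 31, 8, 48 and 7 genes in the same order. The median M4 RPKM of the members was 3.02 with a minimum of 20 reads in M4, and the share in the leading windows was 17.9% with 3 or fewer reads in H3, an alternative chosen after seeing the data. With the coefficient of biological variation set to 0.4 (edgeR's exact test), 5 members were called between OvP and OvW, 4 higher and 1 lower, and 19 same-locus genes between M4 and H3, 16 higher and 3 lower. Under the other test settings these counts stayed within 1.5 times. Of the 16 member calls between OvP and OvW, 2 were lost with Benjamini-Hochberg adjusted p (*EDA3* and *CYSB*), 1 at a coefficient of 0.1, 4 at 0.2 and 11 at 0.4. Of the 38 called same-locus genes with 10 or more reads in H3, 3 lost the call with total reads, 4 at 0.2 and 26 at 0.4. No direction reversed under the settings run. The causes were not tested. No paired analysis was possible because each material had 1 library, and no library could be left out for the same reason. Between-plant variation is unknown, and in *O. violaceus* the few counted reads limit the detection of low genes.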
